A study of Mus musculus with 9 samples.

Results

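Messenger RNAs of 31 genes of fatty acid oxidation were followed in left ventricles of wild-type mice. The genes were taken by symbol from the table of counts, which held 22036 annotated genes. All 31 were found, and all 31 were among the 14160 genes with enough reads to be tested. They were arranged in 5 steps: 9 genes of acyl-CoA formation, the carnitine shuttle and its malonyl-CoA control, 12 of mitochondrial beta-oxidation, 3 of electron transfer, 4 of peroxisomal steps and 3 acyl-CoA thioesterases. Bulk mRNA sequencing was made of 9 libraries, from 3 groups of 3 biological replicates. The first group, ND+AAV-CON, had the ND diet (taken as normal diet) and a control adeno-associated virus (AAV). The group HFD+AAV-CON had that virus and the HFD diet (taken as high-fat diet), and is called the high-fat control group. The group HFD+AAV-BCKDK had the HFD diet and a virus named for BCKDK, the kinase that inhibits branched-chain ketoacid dehydrogenase, and is called the vector group. Every mouse carried a virus and the genotype WT, so no group was free of vector. Age, diet composition and duration, and the dose, serotype and promoter of the virus were not given in the sources used here. No group combined the ND diet with the BCKDK vector.

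The adult heart takes most of its energy from long-chain fatty acids. They are activated to acyl-CoA, carried into mitochondria as carnitine esters, and shortened by repeated rounds of dehydrogenation, hydration, a further dehydrogenation and thiolysis. The first dehydrogenation passes its electrons through electron transfer flavoprotein to ubiquinone, and entry into the mitochondrion is held back by malonyl-CoA. Peroxisomes shorten very long and branched chains and dicarboxylic acids with enzymes of their own, and thioesterases split acyl-CoA back to free acid and CoA.

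The libraries held between 32803233 and 45483044 counts in annotated genes. Bckdk, the gene the vector is named for, stood at 78.6, 70.3 and 70.6 CPM (the usual depth-scaled count, here also scaled for composition) in ND+AAV-CON replicates 1, 2 and 3. It stood at 37.1, 65.0 and 49.4 CPM in the high-fat control group and at 111, 126 and 119.9 CPM in the vector group. The latter was above all other libraries, by 1.24 on the log2 scale over HFD+AAV-CON (SE 0.17, edgeR adjusted p = 0.00161). HFD+AAV-CON replicate 3 stood apart from the other libraries in 2 measures. Loci without a gene name took 1.02% of its counts against 4.75% to 6.01% elsewhere, and for 64.2% of the 14160 genes its level lay between those of HFD+AAV-CON replicates 1 and 2. In the other groups a given replicate was the middle of its group for 26.4% to 37.6% of genes. Whether this library is independent of the other HFD+AAV-CON libraries was not tested, so the counts over the 31 genes, their steps and the other lists are also given without it.

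The members as a group were lowest in HFD+AAV-CON and varied most there. Their median level relative to the ND+AAV-CON mean, on the log2 scale, was -0.02, 0.05 and -0.04 in replicates 1, 2 and 3 on normal diet. It was -1.28, -0.22 and -0.76 in the high-fat control group, and 0.17, 0.08 and 0.12 in the vector group. Replicate 1 of HFD+AAV-CON was thus the lowest library and replicate 2 came close to normal diet. The same order of the 3 libraries (replicate 1 lowest, replicate 2 highest) was found in 30 of the 31 genes, and Cpt1a had the reverse order. The median within-group SD of log2 CPM over the 31 genes was 0.05 on normal diet, 0.57 in the high-fat control group and 0.08 in the vector group. Over all genes tested it was 0.14, 0.20 and 0.15.

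**Figure D1:**
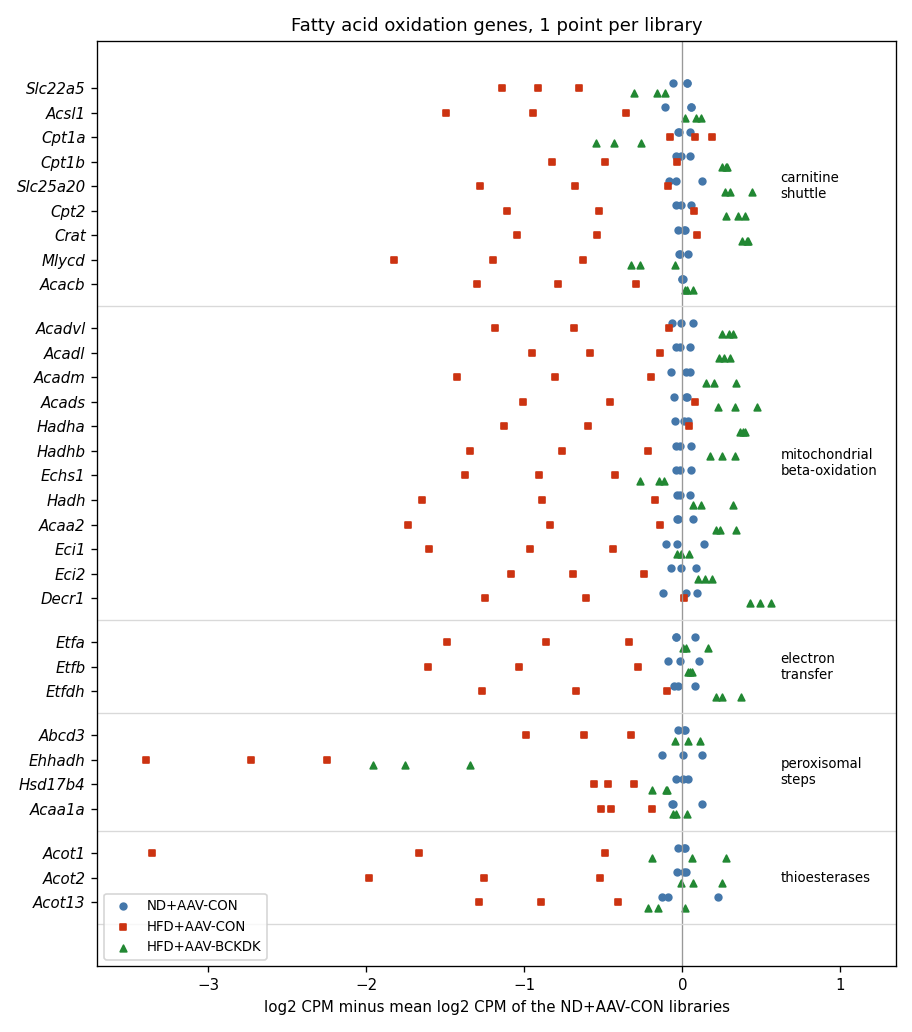
Level of each of the 31 genes in each library, as log2 CPM minus the mean of the 3 ND+AAV-CON libraries (horizontal axis), with 1 point per library and genes grouped by step (vertical axis). The HFD+AAV-CON squares spread widely to the left for most genes, Ehhadh is low in both high-fat groups, and Cpt1a is low only among the HFD+AAV-BCKDK triangles.

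Under the diet, that is between HFD+AAV-CON and ND+AAV-CON, 18 of the 31 genes fell (58.1%), none rose, and 13 did not pass the test (edgeR quasi-likelihood test, adjusted p under 0.05 over all genes). Among all 14160 genes 20.6% were called lower and 22.7% higher in this comparison. The median log2 fold change of the 31 genes was -0.70, beside -0.00 for all genes. In 24 of the 31 genes every HFD+AAV-CON library was below every ND+AAV-CON library, which held for 27.1% of all genes. Without HFD+AAV-CON replicate 3, 9 genes fell (Abcd3, Acot13, Acot2, Echs1, Eci1, Ehhadh, Hsd17b4, Mlycd and Slc22a5), and 12% of all genes were called lower. Without HFD+AAV-CON replicate 2, the library nearest to normal diet, 30 were called. Without ND+AAV-CON replicate 2, 11 were. Of all genes 3689 and 1857 were called lower in these 2 fits, beside 2919 with all 9 libraries.

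With the vector, that is between HFD+AAV-BCKDK and HFD+AAV-CON, 30 genes rose and Cpt1a fell, with a median log2 fold change of 0.87 (-0.01 over all genes). Of all genes 17.3% were called higher and 20.9% lower. The groups did not overlap in any of the 30 genes that rose, as they did not in 24% of all genes. Without HFD+AAV-CON replicate 3 the rise was called for 7 genes (Abcd3, Acadl, Acot2, Eci2, Ehhadh, Hadhb and Slc22a5), with Cpt1a still called lower, and 6.87% of all genes were called higher. Calls kept when each of the 9 libraries was left out in turn numbered 8 (those 7 and Cpt1a). Rises were called for 13 genes without HFD+AAV-BCKDK replicate 1 and for 18 without its replicate 2. Of all genes 1115 and 1226 were called higher in these 2 fits, beside 2444 with all 9 libraries. This comparison and the previous one share the HFD+AAV-CON libraries, so their opposite directions are not independent.

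Between HFD+AAV-BCKDK and ND+AAV-CON, where diet and vector differ together, Ehhadh alone among the 31 genes passed the test, and it fell. Of all genes 1.27% were called lower and 1.18% higher. It was again the only member called without HFD+AAV-CON replicate 3, beside 0.384% of all genes called lower and 0.468% higher. The median log2 fold change of the members was 0.11, beside -0.03 for all genes. The levels nevertheless separated in many members: 16 were higher in every HFD+AAV-BCKDK library than in every ND+AAV-CON library, and 6 were lower, where 12.6% and 15.1% of all genes did so. When these 2 groups were fitted alone, so that the wide spread of HFD+AAV-CON did not enter, 12 genes were called higher (Acaa2, Acadl, Acads, Acadvl, Cpt1b, Cpt2, Crat, Decr1, Etfdh, Hadha, Hadhb and Slc25a20) and Cpt1a and Ehhadh lower. In that fit 3.4% of all genes were called higher and 2.99% lower. Fits of 2 groups alone called fewer members than the main fit in the other comparisons. Under the diet 14 were called lower, beside 2334 of all genes. With the vector 21 were called higher and Cpt1a lower, beside 1491 and 2604 of all genes.

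**Figure D2:**
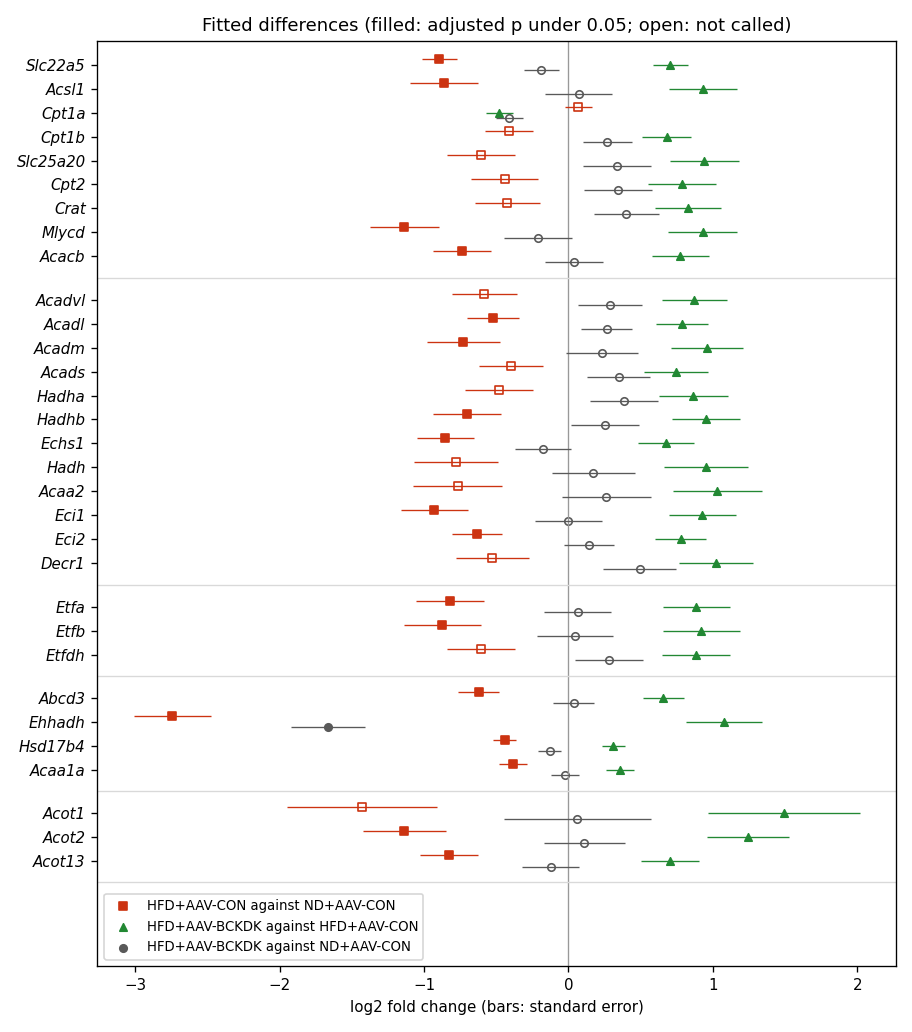
Log2 fold change of each gene (horizontal axis, bars give the standard error) in the 3 comparisons, with genes by step on the vertical axis; filled symbols passed the test at an adjusted p under 0.05. The filled squares number 18, all left of 0, the triangles number 30 to the right and 1 (Cpt1a) to the left, and the only filled circle is Ehhadh.

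Marker genes of several cell types moved with these groups in the same bulk tissue, in which fewer cells of a type and less RNA per cell cannot be told apart. Of 16 cardiomyocyte markers 12 fell under the diet and 10 rose with the vector. Their summed level was 61256 to 64748 CPM on normal diet, 28549.5 to 49861 in the high-fat control group and 55011 to 59950.1 in the vector group. All 12 macrophage and monocyte markers rose under the diet and fell with the vector (727 to 994, 1982 to 3251 and 552 to 736 CPM). Fibroblast markers rose in 8 of 12 and fell in 9 of 12 (2506 to 2602, 3371 to 5774 and 2386 to 2578 CPM). Of 8 T and NK cell markers tested, 7 rose and then 8 fell (2.21 to 37.9, 94.7 to 173 and 2.66 to 12.1 CPM), and of 10 endothelial markers 6 fell and 7 rose. Of 9 liver and serum protein genes, which would mark another tissue rich in Ehhadh and Cpt1a, 3 were tested. These 3 summed to 0.465 to 3.40 CPM over all libraries. The rest, Alb and Apoa1 included, had too few reads, and Apob and Fgb were at 0. Of 8 adipocyte markers 2 had enough reads to be tested and Lep was at 0. The sums of the 2 tested were 55.6 to 68.9, 35.2 to 51.4 and 47.0 to 64.1 CPM. Lipe, a lipase of fat cells that other tissues also make, fell under the diet (-0.60, SE 0.15, adjusted p = 0.0133), and Cfd, the adipocyte protein adipsin, rose with the vector (3.40, SE 1.10, adjusted p = 0.0363). Of 8 skeletal muscle markers 3 were tested and Myh1 and Myog were at 0. The sums of the 3 tested were 247 to 545, 332 to 818 and 288 to 647 CPM. Tnnt3, the fast skeletal troponin T, fell with the vector (-2.99, SE 1.05, adjusted p = 0.0485). Without HFD+AAV-CON replicate 3 the markers called under the diet were 4 cardiomyocyte genes and 4 endothelial genes, all lower, and 12 macrophage, 6 fibroblast and 5 T and NK cell genes, all higher. With the vector they were 4 endothelial genes, higher, and 11 macrophage, 5 fibroblast and 7 T and NK cell genes, lower, and no cardiomyocyte, adipocyte or skeletal muscle marker was called. Mitochondrially encoded genes took 42.1% to 45.7% of counts on normal diet, 26.1% to 39.9% in the high-fat control group and 45.0% to 47.6% in the vector group. The part of these shifts in the values of the 31 genes was not tested. A scaling on the cardiomyocyte markers is given further on. It rests on the levels of those same markers, so it cannot separate cell number from RNA per cell.

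**Figure D3:**
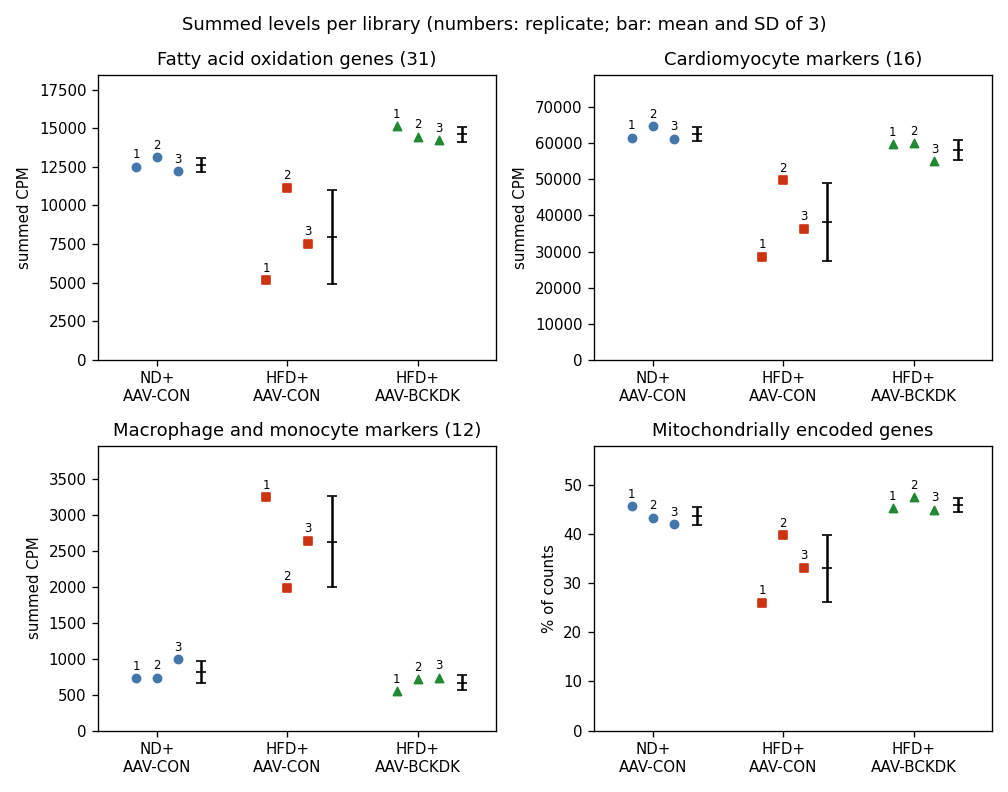
Summed CPM of the 31 fatty acid oxidation genes, of 16 cardiomyocyte markers and of 12 macrophage and monocyte markers, and the percentage of counts in mitochondrially encoded genes, with 1 point per library (numbered by replicate) and the mean and SD of 3. In HFD+AAV-CON replicate 1 is lowest and replicate 2 highest in the sums of oxidation genes and cardiomyocyte markers and in mitochondrial share, and the macrophage sum has the reverse order.

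In the carnitine shuttle 4 of 9 genes fell under the diet (Acacb, Acsl1, Mlycd and Slc22a5), and with the vector 8 rose and Cpt1a fell. The median log2 fold change of the step was -0.60 under the diet, 0.78 with the vector and 0.07 for the vector group against normal diet. The falls called without HFD+AAV-CON replicate 3 were those of Mlycd and Slc22a5, and of the 8 rises 1 was called (Slc22a5), with Cpt1a still called lower. Slc22a5, the carnitine transporter of the plasma membrane, stood at 30.1, 30.0 and 28.3 CPM on normal diet, at 13.3, 18.7 and 15.6 in the high-fat control group and at 23.8, 26.4 and 27.3 in the vector group. The 3 groups did not overlap, and the vector group lay between the others. Its log2 fold change was -0.89 under the diet (SE 0.12, adjusted p = 0.000946) and 0.70 with the vector (SE 0.12, adjusted p = 0.00336). Of the 50-base windows of Slc22a5 transcripts 26.1% also occur in Slc22a21, and a read wholly within such shared sequence cannot be assigned to Slc22a5 alone. Acsl1, which activates long-chain fatty acids to acyl-CoA, stood at 759.7, 757 and 676 CPM on normal diet, at 258, 571 and 379 in the high-fat control group and at 739, 773 and 794 in the vector group. Every HFD+AAV-CON library was below all others (-0.86, SE 0.23, adjusted p = 0.0162), while the other groups overlapped. The fall did not hold when HFD+AAV-CON replicate 3 was left out (adjusted p = 0.0591).

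Carnitine palmitoyltransferase 1, the entry step of the shuttle, is made as a liver form by Cpt1a and as a muscle form by Cpt1b, and these moved apart. Cpt1b (ENSMUSG00000078937, mm10 chromosome 15 from 89416405 to 89425863, minus strand) stood at 390.45, 406 and 381 CPM on normal diet, at 222, 384 and 280.0 in the high-fat control group and at 476, 468 and 475 in the vector group. One HFD+AAV-CON library (replicate 2) was within the ND+AAV-CON range, and the diet difference of -0.41 (SE 0.17, adjusted p = 0.0744) was not called. The vector group lay above all other libraries, 0.68 over HFD+AAV-CON (SE 0.17, adjusted p = 0.0145). Cpt1a (ENSMUSG00000024900, mm10 chromosome 19 from 3322334 to 3385733, plus strand) stood at 51.6, 51.8 and 54.4 CPM on normal diet, at 59.9, 49.8 and 55.6 in the high-fat control group and at 38.9, 36.1 and 43.8 in the vector group. The groups without the BCKDK vector overlapped (0.07, SE 0.09, adjusted p = 0.585), and the vector group lay below every other library. Cpt1a fell by 0.48 against HFD+AAV-CON (SE 0.09, adjusted p = 0.00589), a call kept when any of the 9 libraries was left out. Against ND+AAV-CON its difference of -0.41 (SE 0.09, adjusted p = 0.061) just missed the test, and it was called lower there by DESeq2, with the 2 groups fitted alone, and without HFD+AAV-CON replicate 1 or replicate 2.

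Of the later steps of the shuttle, the inner-membrane carrier Slc25a20, Cpt2, which returns acyl groups to CoA, and carnitine acetyltransferase Crat were not called under the diet and rose with the vector. Cpt2 ranged from 181 to 194 CPM on normal diet, from 86.6 to 197 in the high-fat control group and from 226 to 246 in the vector group. Crat ranged from 367 to 379, from 181 to 399 and from 487 to 499 CPM. In both genes HFD+AAV-CON replicate 2 was above all ND+AAV-CON libraries and below all HFD+AAV-BCKDK libraries. Slc25a20 ranged from 172 to 198, from 75.0 to 171 and from 219.7 to 246 CPM, with no overlap between any groups. The vector difference was 0.94 for Slc25a20 (SE 0.24, adjusted p = 0.0155), 0.78 for Cpt2 (SE 0.23, adjusted p = 0.0272) and 0.82 for Crat (SE 0.23, adjusted p = 0.0212). The rises of Cpt2 and Crat were not called when any 1 HFD+AAV-BCKDK library was left out.

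Malonyl-CoA, the inhibitor of the entry step, is made at the mitochondrial surface by Acacb and removed by the decarboxylase Mlycd. Mlycd stood at 131, 131 and 136 CPM on normal diet, at 37.5, 85.6 and 57.8 in the high-fat control group and at 106, 110.0 and 128 in the vector group. The 3 groups did not overlap. It fell by 1.14 on the log2 scale under the diet (SE 0.24, adjusted p = 0.00546), the largest fall of the shuttle, and rose by 0.93 with the vector (SE 0.24, adjusted p = 0.0162). Acacb stood at 157, 158 and 156 CPM on normal diet, at 63.7, 128 and 91.0 in the high-fat control group and at 159, 161 and 165 in the vector group. Its level was lowest in the high-fat control group and overlapped nowhere. It fell by 0.74 under the diet (SE 0.20, adjusted p = 0.0163) and rose by 0.78 with the vector (SE 0.20, adjusted p = 0.0165), and neither call held when HFD+AAV-CON replicate 3 was left out (adjusted p = 0.0562 and 0.0539).

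**Figure D4:**
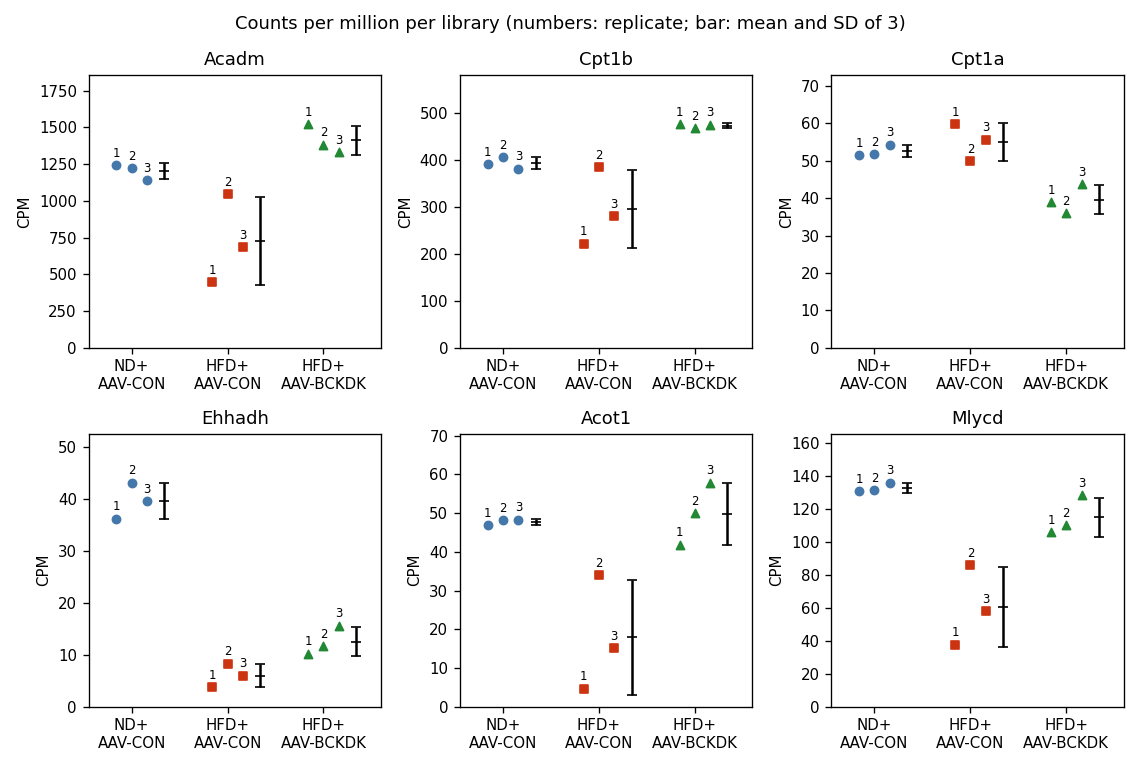
CPM of Acadm, Cpt1b, Cpt1a, Ehhadh, Acot1 and Mlycd in each library (vertical axes start at 0, points numbered by replicate, bars give the mean and SD of 3). Acadm and Cpt1b have their highest levels in HFD+AAV-BCKDK, Cpt1a has its lowest there, and Ehhadh in HFD+AAV-BCKDK stays between 10.2 and 15.6 CPM where ND+AAV-CON has 36.3 to 43.2.

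In mitochondrial beta-oxidation all 12 genes rose with the vector, by 0.68 to 1.03 on the log2 scale with a median of 0.90. Under the diet 6 fell (Acadl, Acadm, Echs1, Eci1, Eci2 and Hadhb), and the median of the step was -0.67. Of the 12 rises 3 were called (Acadl, Eci2 and Hadhb) when HFD+AAV-CON replicate 3 was left out, and of the falls 2 (Echs1 and Eci1). Against normal diet the vector group had a median of 0.26, and 10 of the 12 genes were higher in each of its libraries than in any ND+AAV-CON library without passing the test. The medium-chain dehydrogenase Acadm stood at 1243, 1223 and 1140 CPM on normal diet, at 447, 1045 and 687 in the high-fat control group and at 1523, 1382 and 1333 in the vector group. No groups overlapped, and HFD+AAV-CON replicate 2 came nearest to normal diet. Acadm fell under the diet (-0.73, SE 0.25, adjusted p = 0.0408) and rose with the vector (0.96, SE 0.25, adjusted p = 0.0173). The fall was lost without any 1 of 8 of the 9 libraries, with an adjusted p of up to 0.115.

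The other acyl-CoA dehydrogenases, which open each round of shortening at different chain lengths, had smaller diet differences. Acadl, for long chains, ranged from 1024 to 1089 CPM on normal diet, from 543 to 953 in the high-fat control group and from 1235 to 1295 in the vector group, with no overlap. Its diet difference of -0.52 (SE 0.18, adjusted p = 0.0394) was called, and was lost when any of 8 of the 9 libraries was left out. The very-long-chain enzyme Acadvl (-0.58, SE 0.23, adjusted p = 0.0612) and the short-chain enzyme Acads (-0.40, SE 0.22, adjusted p = 0.171) were not called under the diet. With the vector Acadl rose by 0.79 (SE 0.18), Acadvl by 0.87 (SE 0.23) and Acads by 0.74 (SE 0.22). In Acadvl 42.9% of the exon bases overlap exons of Dvl2 on the opposite strand, and its counts are uncertain because strand use in counting was not given in the sources used here.

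Hadha and Hadhb encode the subunits of the mitochondrial trifunctional protein, which carries out the later reactions on long chains, and the genes lie head to head on mm10 chromosome 5. The 85 bases between their GENCODE start sites, from 30155163 to 30155247 on the plus strand of GRCm38, are printed to show how close these starts lie. The RefSeq starts of the genes lie outside the stretch, whose letters were copied from the RefSeq promoter table (CG dinucleotides in capitals, 9 in number).
between Hadha and Hadhb: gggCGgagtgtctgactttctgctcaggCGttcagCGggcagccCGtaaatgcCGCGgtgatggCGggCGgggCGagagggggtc
Hadha stood at 848, 862 and 816 CPM on normal diet, at 385, 865 and 558 in the high-fat control group and at 1108, 1099 and 1085 in the vector group. Hadhb stood at 1638, 1721 and 1605, at 653, 1425 and 977, and at 2080.4, 1968 and 1866 CPM. In both, replicate 1 of HFD+AAV-CON was lowest and every HFD+AAV-BCKDK library was above all others. The diet difference was called for Hadhb (-0.70, SE 0.23, adjusted p = 0.0365) and not for Hadha (-0.48, SE 0.24, adjusted p = 0.124), whose level in HFD+AAV-CON replicate 2 was above all 3 ND+AAV-CON libraries. The call of Hadhb was lost without any of 7 of the 9 libraries, with an adjusted p of up to 0.103. The rise with the vector was 0.95 for Hadhb (SE 0.24, adjusted p = 0.014) and 0.86 for Hadha (SE 0.24, adjusted p = 0.0206). That of Hadha was not called without HFD+AAV-CON replicate 3 or without any 1 HFD+AAV-BCKDK library (adjusted p of up to 0.068). The difference between the subunits was not tested, and 18.1% of the 50-base windows of Hadhb also occur in the entry Gm13910.

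Of the matrix enzymes for shorter chains Echs1 fell under the diet. The hydratase Echs1 ranged from 358 to 383 CPM on normal diet, from 142 to 275 in the high-fat control group and from 306 to 339.9 in the vector group. Its groups did not overlap, and it was the member of this step that stayed lower with the vector than in every normal-diet library (-0.18, SE 0.20, adjusted p = 0.719). The dehydrogenase Hadh and the thiolase Acaa2 varied widely within HFD+AAV-CON, from 173 to 479 CPM and from 219.9 to 663 CPM, and neither was called under the diet (-0.78, SE 0.29, adjusted p = 0.0535, and -0.77, SE 0.31, adjusted p = 0.0691). Both rose with the vector, Hadh by 0.95 (SE 0.29) and Acaa2 by 1.03 (SE 0.31, adjusted p = 0.0278), the largest rise of the step. Neither rise was called without HFD+AAV-CON replicate 3 or without any 1 HFD+AAV-BCKDK library (adjusted p of up to 0.0879 and 0.0814).

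Unsaturated chains need the isomerases Eci1 and Eci2 and the dienoyl-CoA reductase Decr1. Eci1 stood at 236, 279 and 247 CPM on normal diet, at 83.6, 187 and 130.0 in the high-fat control group and at 252, 261 and 248 in the vector group. The HFD+AAV-CON libraries were below all others, and the other groups overlapped. Eci1 had the largest fall of the step (-0.93, SE 0.23, adjusted p = 0.0117), and Eci2 fell by 0.64 (SE 0.17, adjusted p = 0.0166), a call that ended on leaving out replicate 2 of ND+AAV-CON (adjusted p = 0.0552) or replicate 3 of HFD+AAV-CON (adjusted p = 0.0588). Decr1 ranged from 345 to 401 CPM on normal diet, from 158 to 378 in the high-fat control group and from 506 to 554 in the vector group. Its diet groups overlapped (-0.53, SE 0.25, adjusted p = 0.116), it rose with the vector by 1.02 (SE 0.25, adjusted p = 0.0144), and of the 31 genes it had the highest fitted value over normal diet, 0.49 (SE 0.25, adjusted p = 0.366).

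Electron transfer flavoprotein has the subunits Etfa and Etfb, and Etfdh passes its electrons on to ubiquinone. Etfa stood at 643, 697 and 642 CPM on normal diet, at 236, 523 and 364 in the high-fat control group and at 740.4, 661 and 672 in the vector group. Etfb stood at 392, 449 and 413, at 137, 344 and 204, and at 432, 428 and 436 CPM. In both genes the high-fat control libraries were below all others, and the vector group overlapped normal diet. Etfa fell by 0.82 (SE 0.23, adjusted p = 0.0194) and Etfb by 0.87 (SE 0.27, adjusted p = 0.0257) on the log2 scale under the diet. The call of Etfa ended on leaving out replicate 2 of ND+AAV-CON (adjusted p = 0.0593) or replicate 3 of HFD+AAV-CON (adjusted p = 0.0635). That of Etfb was lost without any ND+AAV-CON library or HFD+AAV-CON replicate 3, with an adjusted p of up to 0.0869. Etfdh ranged from 536 to 588 CPM on normal diet, from 231 to 519 in the high-fat control group and from 644 to 719 in the vector group, and its diet difference of -0.60 (SE 0.24, adjusted p = 0.0631) was not called. With the vector the rises of the 3 genes were close, at 0.89 for Etfa, 0.92 for Etfb and 0.88 for Etfdh. None of the 3 rises was called without HFD+AAV-CON replicate 3 (adjusted p = 0.0569, 0.0801 and 0.0614), and that of Etfb was not called without any 1 HFD+AAV-BCKDK library either. Of the 50-base windows of Etfb 43.8% also occur in the overlapping entry Gm45233, which held 0 to 9 counts in a library.

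All 4 genes of the peroxisomal steps fell under the diet and rose with the vector. The falls of Abcd3, Ehhadh and Hsd17b4 and the rises of Abcd3 and Ehhadh were called also when HFD+AAV-CON replicate 3 was left out. The direction of some depended on the scaling of libraries: with the vector Hsd17b4 and Acaa1a turned negative with total counts (-0.135 and -0.0835) and on cardiomyocyte markers (-0.35 and -0.29), and under the diet Abcd3, Hsd17b4 and Acaa1a turned positive on cardiomyocyte markers. Ehhadh, the peroxisomal bifunctional enzyme whose known substrates include dicarboxylic acids (ENSMUSG00000022853, mm10 chromosome 16 from 21761287 to 21787807, minus strand), had the largest fall of the 31 genes under the diet. It stood at 36.3, 43.2 and 39.7 CPM on normal diet, at 3.72, 8.29 and 5.94 in the high-fat control group and at 10.2, 11.7 and 15.6 in the vector group. The groups did not overlap, and the vector group stayed nearer to HFD+AAV-CON than to normal diet. Its log2 fold change was -2.74 under the diet (SE 0.27, adjusted p = 0.00036), which is 0.149 of the normal-diet level, and 1.08 with the vector (SE 0.26, adjusted p = 0.013). Both calls were kept when any of the 9 libraries was left out. Against normal diet the vector group was lower by a log2 difference of -1.67 (SE 0.26, adjusted p = 0.0149), or 0.315 of its level. That call ended on leaving out replicate 1, 2 or 3 of ND+AAV-CON (adjusted p = 0.0584, 0.0661 and 0.0522) or replicate 1 or 2 of HFD+AAV-BCKDK (adjusted p = 0.0613 and 0.0771).

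The other peroxisomal members changed less and varied less between HFD+AAV-CON libraries. Hsd17b4, the other bifunctional enzyme, which takes branched and very long chains, stood at 80.8, 84.9 and 83.1 CPM on normal diet, at 56.3, 67.1 and 59.8 in the high-fat control group and at 77.1, 77.5 and 72.5 in the vector group. The groups did not overlap, with a log2 fold change of -0.44 under the diet (SE 0.08, adjusted p = 0.00289) and a rise of 0.31 with the vector (SE 0.08, adjusted p = 0.0167). The rise was not called without replicate 3 of HFD+AAV-CON or replicate 1 or 2 of HFD+AAV-BCKDK (adjusted p = 0.0534, 0.0543 and 0.0568). The thiolase Acaa1a ranged from 53.9 to 61.6 CPM on normal diet, from 39.5 to 49.4 in the high-fat control group and from 54.2 to 57.8 in the vector group, with log2 fold changes of -0.38 (SE 0.10, adjusted p = 0.0126) and 0.36 (SE 0.10, adjusted p = 0.0206). The call of its fall ended on leaving out replicate 2 of ND+AAV-CON or replicate 3 of HFD+AAV-CON (adjusted p = 0.0524 in each). That of its rise ended without replicate 3 of HFD+AAV-CON or replicate 1 or 2 of HFD+AAV-BCKDK (adjusted p = 0.0655, 0.0527 and 0.0679). The importer of acyl groups into the peroxisome, Abcd3, ranged from 112 to 116 CPM, from 57.5 to 91.4 and from 110.6 to 124 CPM. It fell under the diet (-0.62, SE 0.14, adjusted p = 0.00808) and rose with the vector (0.66, SE 0.14, adjusted p = 0.00875), and both calls were kept without any single library. Of the windows of Acaa1a 12.4% also occur in its paralogue Acaa1b, and 6.57% of its exon bases overlap Myd88 on the opposite strand.

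Thioesterases include Acot1, which had the widest range on the log2 scale of the 31 genes among the high-fat control libraries. Acot1 is cytosolic and Acot2 mitochondrial, and they are neighbours on mm10 chromosome 12 (84009490 to 84018371 and 83987861 to 83993873, plus strand). Of the 50-base windows of Acot2 transcripts 24.5% occur in Acot1, and of those of Acot1 13.6% occur in Acot2. A read that lies wholly within such shared sequence cannot be assigned to either alone. The share of such reads was not tested. Their longest shared coding stretch is printed to show the extent of this identity. It spans 273 bases, from coding base 887 to 1159 of 1257 in Acot1 and from 1010 to 1282 of 1359 in Acot2 (GENCODE vM21 transcripts).
shared by Acot1 and Acot2: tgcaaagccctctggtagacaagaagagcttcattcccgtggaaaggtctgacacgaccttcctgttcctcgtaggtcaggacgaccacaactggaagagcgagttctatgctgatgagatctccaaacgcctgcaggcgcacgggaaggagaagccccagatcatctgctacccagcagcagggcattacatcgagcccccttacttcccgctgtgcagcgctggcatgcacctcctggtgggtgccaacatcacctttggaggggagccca
Acot1 stood at 46.9, 48.1 and 48.3 CPM on normal diet, at 4.64, 34.0 and 15.0 in the high-fat control group and at 41.8, 49.9 and 57.8 in the vector group. All HFD+AAV-CON libraries were below the others, and replicate 1 was far below replicate 2. The diet difference of -1.43 (SE 0.52, adjusted p = 0.0504) was not called. The rise with the vector was 1.49 (SE 0.52, adjusted p = 0.0482), the largest of the 31 genes, and it was lost without any of 7 of the 9 libraries, with an adjusted p of up to 0.131. Acot2 stood at 96.3, 101 and 99.5 CPM, at 25.0, 68.7 and 41.4, and at 104, 98.2 and 117 CPM. It fell under the diet (-1.14, SE 0.28, adjusted p = 0.0115) and rose with the vector (1.24, SE 0.29, adjusted p = 0.0106), and neither call was lost without any single library. Acot13, a thioesterase of the mitochondrial surface, ranged from 195 to 249 CPM on normal diet, from 87.4 to 161 in the high-fat control group and from 183 to 216 in the vector group. It fell by 0.83 on the log2 scale under the diet (SE 0.20, adjusted p = 0.00996) and rose by 0.70 with the vector (SE 0.20, adjusted p = 0.0234). Calls made also without HFD+AAV-CON replicate 3 were the falls of Acot2 and Acot13 and the rise of Acot2.

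Levels per length (RPKM, CPM divided by kilobases of merged exons) ordered the members in ND+AAV-CON. The highest were Acadl at 525 ± 16.5 RPKM (SD, n = 3), Acaa2 at 483 ± 19.0, Etfa at 360.1 ± 17.0, Etfb at 359 ± 24.8 and Acadm at 307 ± 13.9. The intervals of Etfa and Etfb overlapped. At the low end were Ehhadh at 13.3 ± 1.16, Acaa1a at 12.8 ± 0.991 and Acot1 at 12.2 ± 0.197, which did not differ beyond their spread, then Slc22a5 at 9.60 ± 0.333 and Cpt1a at 6.88 ± 0.203. Cpt1b stood at 116 ± 3.71 RPKM, and the muscle form was thus above the liver form in this tissue. Ehhadh stood at 2.01 ± 0.767 RPKM in HFD+AAV-CON and at 4.19 ± 0.935 in HFD+AAV-BCKDK. The merged exon length counts every annotated exon, retained introns included, so genes with long rare transcripts come out low.

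Ratios of reads between members within a library do not depend on the scaling of libraries. The part of the shifts in cell type markers in these ratios was not tested. The Cpt1a share of Cpt1a and Cpt1b reads was 11.7%, 11.3% and 12.5% on normal diet, 21.3%, 11.5% and 16.6% in the high-fat control group, and 7.55%, 7.16% and 8.44% in the vector group. The vector group was below every other library, and the other groups overlapped. The Ehhadh share of Ehhadh and Hsd17b4 reads was 31%, 33.7% and 32.3%, then 6.20%, 11% and 9.03%, then 11.7%, 13.1% and 17.7%. All 3 groups were apart, with the vector group between the others. The reads of Acacb per read of Mlycd were 1.20, 1.20 and 1.15 on normal diet, 1.70, 1.5 and 1.57 in the high-fat control group, and 1.503, 1.46 and 1.28 in the vector group. Both high-fat groups were above normal diet, and they overlapped each other. The exact two-sided permutation p of the 9 comparisons was 0.1 in 7, the smallest that 3 against 3 libraries allow (adjusted p = 0.129). It was 0.3 for the Cpt1a share under the diet (adjusted p = 0.3) and 0.2 for the Acacb to Mlycd ratio with the vector (adjusted p = 0.225). A share compares reads and not molecules, since the genes differ in length, and 78.6% of the 50-base windows of Cpt1b also occur in the overlapping entry Gm44502, which held 186 to 435 counts in a library.

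**Figure D5:**
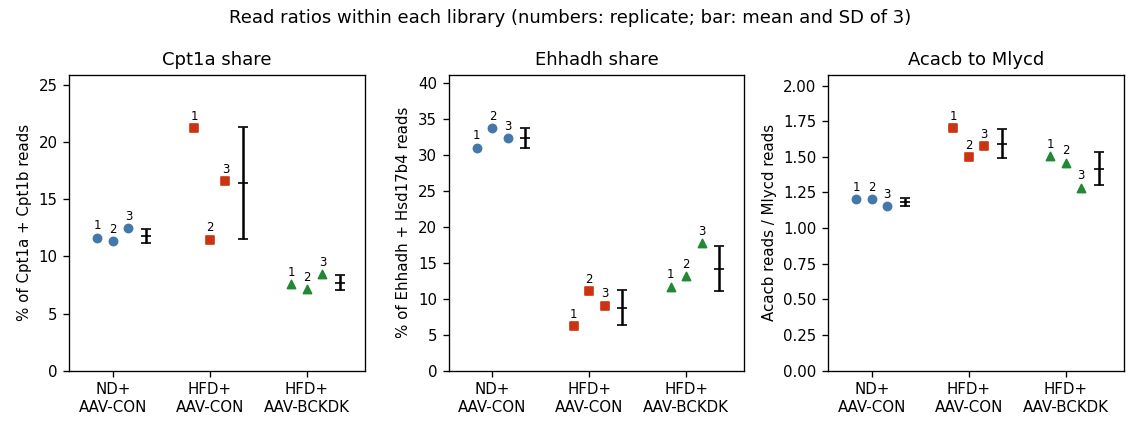
Cpt1a share of Cpt1a plus Cpt1b reads, Ehhadh share of Ehhadh plus Hsd17b4 reads (both in percent) and reads of Acacb per read of Mlycd, in each library numbered by replicate, with the mean and SD of 3. The Cpt1a share is lowest in HFD+AAV-BCKDK (7.16% to 8.44%), and the Ehhadh share there (11.7% to 17.7%) stays below that of ND+AAV-CON (31% to 33.7%).

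Scaling each library to its cardiomyocyte markers gave different calls. Under that scaling the median log2 fold change of all genes was 0.78 under the diet and -0.69 with the vector, and 63.9% of genes were called higher and 1.65% lower under the diet. The 31 genes then had a diet median of -0.02. Ehhadh, Mlycd (-0.46, SE 0.15, adjusted p = 0.02) and Acot2 were called lower, and Cpt1a, Cpt1b, Acadl, Acads and Acaa1a were called higher. With the vector 57.4% of all genes were called lower and 0.883% higher, and of the members 15 were called higher and Cpt1a lower (median 0.29). Hsd17b4 and Acaa1a turned negative with the vector under this scaling, and Acadl, Eci2, Abcd3, Hsd17b4 and Acaa1a turned positive under the diet. With total counts and no composition factor, where the median of all genes was 0.40 under the diet, 13 members were called lower and Cpt1a higher (median -0.36). With the vector that scaling gave 22 higher and Cpt1a lower (median 0.47, all genes -0.47). Of all genes, total counts gave 934 lower and 5986 higher under the diet, and 6867 lower and 398 higher with the vector. Against normal diet Ehhadh was the only member called under each of these 2 scalings. Of all genes 85 were called lower and 51 higher there with total counts, and 18 lower and 40 higher on cardiomyocyte markers.

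A list of 45 other genes of fatty acid oxidation and related acyl-CoA metabolism was counted apart, and 43 were tested. Of these 25 fell and 2 rose under the diet (median -0.59), where 20.6% and 22.7% of all genes did so. With the vector 21 rose and 2 fell (median 0.40), where 17.3% and 20.9% of all genes did so. None was called between the vector group and normal diet (median -0.15). With HFD+AAV-CON replicate 3 left out, 19 fell and 1 rose under the diet, and 6 rose and 2 fell with the vector. Of all genes 12% were then called lower under the diet and 6.87% higher with the vector. Mcat, on the list although it is the acyltransferase of mitochondrial fatty acid synthesis, ranged from 28.4 to 29.2 CPM on normal diet, from 15.6 to 19.0 in the high-fat control group and from 25.0 to 28.4 in the vector group. It fell under the diet (-0.74, SE 0.09, adjusted p = 0.000726). Etfrf1, a regulator of electron transfer flavoprotein, fell by 0.83 on the log2 scale (SE 0.13), and Acad9, a dehydrogenase that also serves complex I assembly, by 0.59 (SE 0.09). Etfbkmt, which methylates Etfb, rose by 1.27 with the vector (SE 0.28, adjusted p = 0.00948). Acsl5, another acyl-CoA synthetase, went the other way from Acsl1: it ranged from 23.1 to 28.0 CPM on normal diet, from 43.6 to 66.5 in the high-fat control group and from 25.1 to 29.2 in the vector group. It rose by 1.10 under the diet (SE 0.15, adjusted p = 0.000957) and its vector difference was -1.03 (SE 0.15, adjusted p = 0.00179).

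Of 22 regulators of fatty acid oxidation 6 fell and 1 rose under the diet. The share that fell was near that of all genes (20.6%). With the vector 7 rose and 2 fell, where 17.3% and 20.9% of all genes did so. None was called between the vector group and normal diet. Without HFD+AAV-CON replicate 3, 4 fell under the diet, and Prkaa2 alone was called with the vector, where it rose. Of all genes 12% were then called lower under the diet and 6.87% higher with the vector. Prkaa2, the catalytic subunit of AMP-activated kinase that is abundant in muscle, fell by 0.59 under the diet (SE 0.10, adjusted p = 0.0022) and rose by 0.58 with the vector (SE 0.10, adjusted p = 0.00353). The mitochondrial deacylase Sirt5 fell by 0.98 (SE 0.19, adjusted p = 0.00346). The estrogen-related receptors Esrrg and Esrrb, nuclear receptors of mitochondrial genes, fell by 0.75 (SE 0.18) and 0.77 (SE 0.20). Hif1a, the hypoxia factor, was highest in HFD+AAV-CON (71.1 to 130.4 CPM) and its vector difference was -0.76 (SE 0.20, adjusted p = 0.0162). Acaca, the cytosolic acetyl-CoA carboxylase, did not pass the test under the diet and fell with the vector (-0.47, SE 0.13, adjusted p = 0.0214), as Cpt1a did.

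Promoters of the members were searched for the letters bound by PPAR and estrogen-related receptors. RefSeq promoters (GRCm38, 250 bases before to 50 after the start) were at hand for 25 of the 31 genes. No promoter of these 25 held a direct repeat of 2 copies of AGGTCA set 1 base apart, exactly or with 1 mismatch, nor the letters TCAAGGTCA, on either strand. Of all 32851 promoters 0.04% held the exact repeat, 0.554% held it with at most 1 mismatch, and 0.423% held TCAAGGTCA, which shares its last 6 letters with the repeat unit. The absence says only that these letters are not in these windows.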

How the data were processed

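Left ventricular mRNA of 9 mice was sequenced. Trizol extraction and a VAHTS mRNA-seq v2 library kit are named per the labels' protocols. HISAT2 2.0.5 and mm10 are named per the submitters' processing notes, and the counting tool, annotation and strand use were not given in the sources used here. Raw counts per gene, with no normalization, were deposited by the authors. Entries without a gene name (1.02% to 6.01% of a library's counts) were left out.

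The tests used edgeR 4.0.16 (R 4.3.3): filterByExpr by group, TMM factors, and a quasi-likelihood fit of all 9 libraries with 1 coefficient per group. P values were adjusted (Benjamini-Hochberg) over 14160 genes, and a call means an adjusted p under 0.05. Every adjusted p of a gene comes from this test unless another tool is named. The SE of a log2 fold change was taken from its F statistic. CPM use TMM-scaled library sizes, and RPKM divide by merged exons of GENCODE vM21. Read ratios were tested with exact permutation tests. P values of the edgeR fit set a difference between groups against an estimate of the spread between libraries within a group. That estimate is shared by all groups, although the members varied most in HFD+AAV-CON. The pipeline was tested on simulated data in which each gene had the same spread in every group. That setting lacks the wider spread of HFD+AAV-CON, so it does not show how reliable the calls are there.

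Alternatives were other scalings and filters, DESeq2 1.42.0, limma-voom (limma 3.58.1), a replicate block, fits of 2 groups alone, a threshold of 0.01 and leaving out each library. The genes and lists were chosen with earlier results of these data known. By rule, Bckdk was named besides the 31 genes. So were up to 4 called genes with the smallest p among other oxidation enzymes and among regulators, in the diet and vector comparisons. Lipe, Cfd, Tnnt3, Cd36, Fabp4 and Lpl lay outside this rule and were chosen after their values were seen.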

Additional observations from a re-analysis of the deposited data

How the results depend on the processing

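Of the results for single called genes, 307 of 378 recomputed values under the diet kept direction and call, 66 lost the call and 5 changed sign. With the vector 529 of 651 kept both, 118 lost the call and 4 changed sign, and for the combined comparison of HFD+AAV-BCKDK and ND+AAV-CON 15 of 21 kept both and 6 lost the call. Scaling on cardiomyocyte markers called 8 members under the diet, 3 lower and 5 higher (median -0.0192), and 16 with the vector, 15 higher and 1 lower (median 0.29), with a median of 0.22 against normal diet. Sign changes under it were, for the diet, Acadl 0.19, Eci2 0.0722, Abcd3 0.10, Hsd17b4 0.32, Acaa1a 0.37 and Bckdk 0.17, and for the vector Hsd17b4 -0.35 and Acaa1a -0.29. With total counts the vector values of Hsd17b4 (-0.135) and Acaa1a (-0.0835) changed sign. At an adjusted p under 0.01, 7, 4 and 0 members were called in the diet, vector and combined comparisons. Of all genes 1314 were then called lower and 1940 higher, 1561 lower and 497 higher, and 29 lower and 35 higher. For the combined comparison DESeq2 called 2 and the fit of 2 groups alone 14. DESeq2 called 408 of all genes lower there and 470 higher. Leaving out each library gave 9 to 30, 8 to 31 and 0 to 2 calls. Calls kept without every library in turn numbered 9 of 18 under the diet and 8 of 31 with the vector. Under the diet Bckdk was called lower in the main fit (-0.54, SE 0.17, adjusted p = 0.03), and it missed the 0.01 threshold. Its value was -0.18 with total counts (adjusted p = 0.189) and -0.54 in the fit of 2 groups alone (adjusted p = 0.0643). Without 1 library it was -0.76 to -0.36. The call ended without any 1 ND+AAV-CON library or HFD+AAV-CON replicate 1 or 3 (adjusted p = 0.0525 to 0.0905). Against normal diet Bckdk was not called in the main fit (0.70, SE 0.17, adjusted p = 0.07). It passed the test with total counts (0.64), cardiomyocyte scaling (0.80), DESeq2 (0.72) and 2 groups alone (0.71). Without 1 library the value was 0.66 to 0.75, and it passed without HFD+AAV-CON replicate 1 or 2 (adjusted p = 0.0113 and 0.00845). The cause of these changes was not tested.

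With the replicate block 20, 31 and 1 members were called, so the block moved no count by over 1.5 times. The replicate numbers were not taken to pair the libraries: same-numbered libraries had correlations of -0.22 to 0.19, over 0.1 in 2 of 9 pairs, and 4 of the 9 libraries correlated best with their own number. Leaving out a library leaves fewer samples, and the diet count went both ways. With 3 libraries per group the exact tests of ratios cannot pass 0.05.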

Other observations

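Genes for uptake and binding of fatty acids, which feed the oxidation enzymes, were counted apart. Of 8 such genes 7 were tested. Under the diet 4 fell, with a median log2 fold change of -0.75, and with the vector 6 rose, with a median of 0.79. Of all genes 20.6% were called lower under the diet and 17.3% higher with the vector. None was called between HFD+AAV-BCKDK and ND+AAV-CON (median 0.05). Without HFD+AAV-CON replicate 3, 4 fell under the diet and 3 rose with the vector (Cd36, Fabp4 and Lpl), where 12% and 6.87% of all genes did so. The 7 tested genes summed to 9793 to 10617 CPM in ND+AAV-CON, 4113 to 7741 in HFD+AAV-CON and 9885 to 10662 in HFD+AAV-BCKDK. In HFD+AAV-CON replicate 1 was lowest and replicate 2 highest, as for the oxidation genes.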
